A study of Mus musculus with 8 samples.

Results

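The ISG15 conjugation machinery and a group of interferon-regulated PARP genes were examined in mouse endothelial cells with and without LRP1. The set held 10 genes, Isg15, Usp18, Uba7, Ube2l6, Herc6, Trim25, Parp9, Dtx3l, Parp12 and Parp14, picked by gene symbol from the 22520 genes of the deposited RNA-Seq table, and all 10 were present and passed the expression filter. The study asked which genes change in endothelial cells (ECs) that lack LRP1, an endocytic and signaling receptor of the LDL receptor family. There were 4 LRP1 KO and 4 wild-type (WT) littermate libraries of C57BL/6 mice at postnatal day 14, each described as a mixture of heart, liver and lung microvascular cells. According to the study's methods, both groups carried floxed LRP1 alleles (LRP1 f/f), LRP1 KO mice also carried a Cdh5-CreER transgene (Cdh5-CreER+/-), which drives an inducible Cre recombinase from an endothelial promoter, and WT mice did not (Cdh5-CreER-/-). The presence of CreER and the loss of LRP1 therefore cannot be told apart. Beads coated with an antibody to PECAM-1 were used to select the cells. How many animals were behind each library is not given in the sources used here, so p-values measure the spread between these libraries, which may be technical.

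ISG15 is a small ubiquitin-like protein that cells make in response to interferon. It is joined to lysines of other proteins by a cascade like that of ubiquitin, in which UBA7 is the activating enzyme (E1), UBE2L6 the conjugating enzyme (E2) and HERC6 the main ligase (E3) of the mouse, and USP18 takes it off again. PARP enzymes transfer ADP-ribose from NAD+ to proteins, and PARP9, PARP12 and PARP14 belong to the branch of that family that is itself induced by interferon. In endothelium, as in most tissues, transcripts of both systems serve as a readout of interferon signaling.

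Values were FPKM (fragments counted per kilobase of transcript and scaled to the library, a level corrected for gene length) that had been quantile normalized across libraries before deposit, so the depth of each library is unknown. The unit was inferred and not named in the table, and TPM, a similar length-corrected unit, could not be told apart from it. Differences are given on the log2(FPKM + 1) scale, on which a gene with low values shows a smaller change than its ratio of FPKM. A gene was called at a limma p-value, adjusted over all 11389 tested genes, under 0.05. Lrp1 itself ranged from 103 to 140 FPKM across WT libraries and from 2.79 to 7.72 FPKM across LRP1 KO libraries, so the labels matched the targeted gene in every library. In the first principal component, LRP1 KO library 4 lay at 0.102, between the other LRP1 KO libraries (17.2 to 27.3) and WT (-24.1 to -12.9).

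Of the 10 genes, 9 were called higher in LRP1 KO and 0 were called lower, with Herc6 as the exception, and all 10 differences were positive. Among all tested genes, 6.27% were called higher and 7.31% lower. The median difference of the 10 genes was 0.62, against -0.01 over all tested genes. With an added limit of a log2 difference of at least 1, Isg15 and Usp18 remained, 2 of 10, where 1.12% of all tested genes passed that rule in the upward direction. In the 9 called genes every LRP1 KO library lay above every WT library, a pattern seen in 8.84% of all tested genes. The values by library and the size of each change are plotted for all 10 genes.

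**Figure D1:**
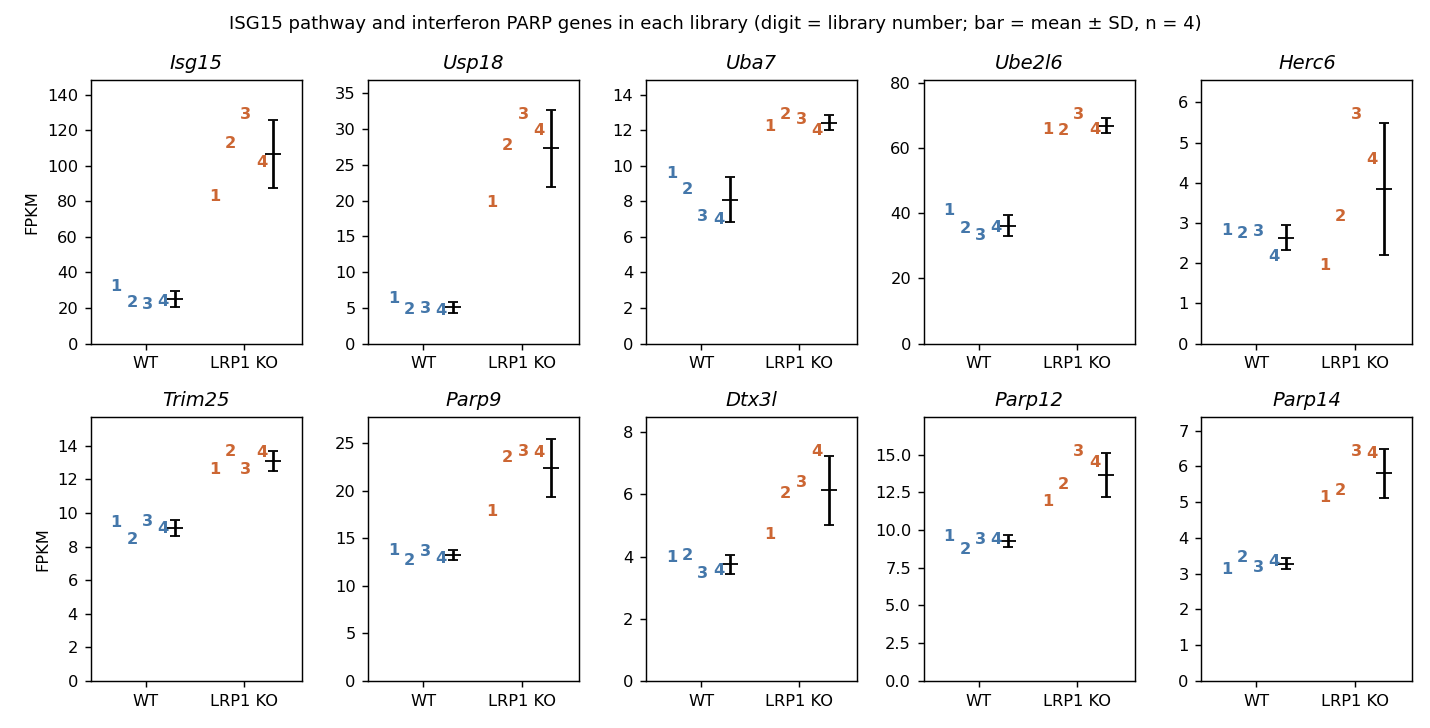
FPKM of each of the 10 genes (one panel per gene, linear axis from 0) in the 4 WT and 4 LRP1 KO libraries; each digit is the library number at its value, and the bar is the mean ± SD (n = 4). The groups are separate in every panel but that of Herc6, where LRP1 KO library 1 is the lowest of all 8 values.

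**Figure D2:**
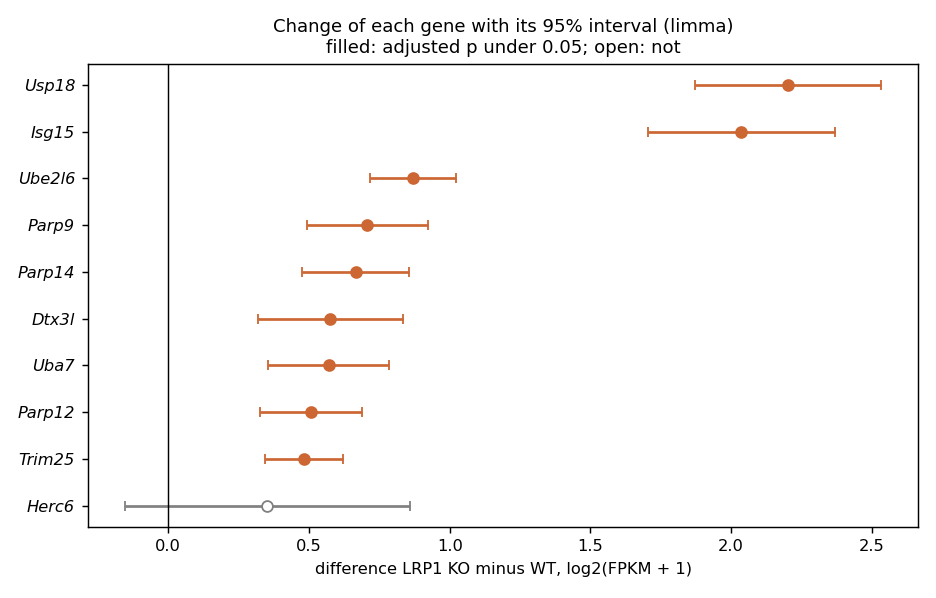
Difference LRP1 KO minus WT in log2(FPKM + 1), with its 95% interval from limma, for each gene; filled points have an adjusted p under 0.05 and the open point does not. Usp18 and Isg15 lie near 2, the other called genes between 0.48 and 0.87, and the interval of Herc6 spans 0.

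Isg15 (ENSMUSG00000035692), the modifier itself, is a protein-coding gene with 2 exons on chromosome 4 (156199424 to 156200818, minus strand, in GRCm38, that is mm10). Its level was 31.8, 22.8, 22.2 and 23.7 FPKM across WT libraries 1 to 4, against 82.8, 112, 129 and 102 FPKM across those of LRP1 KO. The lowest LRP1 KO library was thus at 2.60 times the highest WT library. The mean rose from 25.2 ± 4.49 to 107 ± 19.3 FPKM (SD, n = 4 each), a ratio of 4.24, and the log2 difference was 2.04 (SE 0.15, limma adjusted p 0.000357). Among all tested genes it ranked 28th by the size of its rise.

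The promoter of Isg15 is shown because it held matches to an interferon-response motif. The interferon-stimulated response element (ISRE) is a binding sequence of IRF factors, and its core GAAANNGAAA was searched on both strands in the window from 250 bases before to 50 bases after the start of transcription, in RefSeq sequence (GRCm38.p6). The stretch of the Isg15 window at chr4:156200855-156200916 on the minus strand is given, and capitals mark 3 overlapping matches to the core, which together cover 22 bases from 78 to 57 bases before the start.
Isg15: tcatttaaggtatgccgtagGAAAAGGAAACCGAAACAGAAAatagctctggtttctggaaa
Of the 10 genes, 7 had a window in that table (Isg15, Uba7, Ube2l6, Herc6, Trim25, Dtx3l and Parp12), and Isg15 was the 1 gene of these 7 with a match to the core. Such a match was found in 3.99% of all 27025 genes with a window, and in 9 of 12 genes of a list of IFIT, OAS and MX antiviral effectors. Matches are a description of these letters in this window and say nothing of binding.

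A shorter core shared by IRF-binding elements, AANNGAAA on either strand, which is contained in the ISRE core, occurred in 4 of the 7 windows (Isg15, Uba7, Trim25 and Dtx3l) and in 26.7% of all genes with a window. The windows follow the RefSeq start, which for Uba7, Trim25 and Dtx3l lies downstream of the GENCODE gene start given with these genes. Their matches therefore lie inside the gene by GENCODE, and that of Dtx3l lies after the RefSeq start as well. A further motif, GAS (TTCNNNGAA, an interferon gamma response element, which reads alike on both strands), was in 0 of the 7 windows and in 9.55% of all genes with a window.

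Usp18 (ENSMUSG00000030107, chromosome 6, 121245906 to 121270917, plus strand) encodes the protease that removes ISG15 from its targets and that also damps signaling at the type I interferon receptor. Its values were 6.24, 4.77, 4.85 and 4.56 FPKM across WT libraries 1 to 4, against 19.7, 27.7, 32.1 and 29.9 FPKM across those of LRP1 KO. The groups were separated by a wider gap than in Isg15, with the lowest LRP1 KO library at 3.16 times the highest WT library. The mean went from 5.10 ± 0.769 to 27.3 ± 5.39 FPKM (SD, n = 4 each), a ratio of 5.36, and the log2 difference of 2.20 (SE 0.15, limma adjusted p 0.000357) was the largest of the 10 genes. Its intervals and those of Isg15 overlapped, at 1.87 to 2.53 and 1.71 to 2.37.

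Modifier and protease were compared within each library as the ratio of their levels. There were 5.10, 4.79, 4.59 and 5.20 FPKM of Isg15 per FPKM of Usp18 in WT libraries 1 to 4, and 4.20, 4.06, 4.02 and 3.42 in LRP1 KO libraries 1 to 4. Every LRP1 KO ratio was below every WT ratio, with means of 4.92 ± 0.282 and 3.92 ± 0.346 (SD, n = 4 each). On the log2 scale with 1 added to each value, the difference of -0.16 did not pass an exact two-sided permutation test (p = 0.0571, Benjamini-Hochberg adjusted p = 0.114 over the 2 ratios compared). With 0.1 added in place of 1 the difference was -0.31 with p = 0.0286 in the same exact permutation test, the minimum for this design, and adjusted p = 0.0571 over the 2 ratios, so the ratio did not pass after adjustment with either constant.

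Uba7 (ENSMUSG00000032596, chromosome 9, 107975505 to 107984060), which activates ISG15 at the head of the cascade, also rose. Its level was 9.57, 8.68, 7.16 and 6.97 FPKM across WT libraries 1 to 4, against 12.2, 12.9, 12.6 and 12.0 FPKM across those of LRP1 KO. The LRP1 KO libraries were close together, with a coefficient of variation of 3.35%, while WT libraries varied by 15.4%. The log2 difference was 0.57 (SE 0.10, limma adjusted p 0.00847), a ratio of means of 1.53. A further protein-coding gene on the same strand, Gm20661, shares 3.48% of the exonic bases of Uba7.

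Ube2l6 (ENSMUSG00000027078, chromosome 2, 84798828 to 84810335), the E2 that receives ISG15 from UBA7, was the most abundant of the 10 genes in WT. It stood at 40.9, 35.2, 33.1 and 35.7 FPKM across WT libraries 1 to 4, against 65.7, 65.5, 70.4 and 65.8 FPKM across those of LRP1 KO. The groups did not overlap and spread little, so that the log2 difference of 0.87 had an SE of 0.07 (limma adjusted p 0.000389). The ratio of means was 1.85, between those of Isg15 and Uba7.

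Herc6 (ENSMUSG00000029798, chromosome 6, 57581000 to 57664632), the ligase that completes the cascade, was listed at 2.82, 2.75, 2.80 and 2.16 FPKM across WT libraries 1 to 4, against 1.93, 3.16, 5.71 and 4.59 FPKM across those of LRP1 KO. Libraries 2, 3 and 4 of LRP1 KO were above all WT libraries, and library 1 was below them. Its difference of 0.35 (SE 0.22, 95% interval -0.15 to 0.86) did not pass (limma adjusted p 0.296). By exact permutation (two-sided), p was 0.229. Without LRP1 KO library 1 the difference was 0.57, and the limma adjusted p of 0.0763 still missed the threshold, while without LRP1 KO libraries 3 and 4 the difference was 0.17 and 0.26 (limma adjusted p 0.619 and 0.451). Of the 50-base stretches in the longest coding transcript of Herc6, 23.8% also occur in Gm45193, a transcript annotated on the same strand. Gm45193 is not among the deposited genes, so whether reads were shared with it is not known. The level of Herc6 may therefore be less certain than that of the others.

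Trim25 (ENSMUSG00000000275, chromosome 11, 88999376 to 89020293), a ubiquitin and ISG15 ligase known for its part in RIG-I signaling, was at 9.42, 8.43, 9.46 and 9.07 FPKM across WT libraries 1 to 4, against 12.6, 13.7, 12.6 and 13.6 FPKM across those of LRP1 KO. The groups did not overlap, and the mean rose from 9.09 ± 0.478 to 13.1 ± 0.600 FPKM (SD, n = 4 each). The log2 difference of 0.48 (SE 0.06, limma adjusted p 0.00272) was the smallest among the 9 called genes, with a ratio of means of 1.44.

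Parp9 and Dtx3l lie head to head on chromosome 16 and encode partners of 1 complex, a PARP with ADP-ribose-binding macrodomains and a Deltex-type ubiquitin ligase. Parp9 (ENSMUSG00000022906, 35938470 to 35972605, plus strand) was listed at 13.7, 12.7, 13.6 and 12.9 FPKM across WT libraries 1 to 4, against 17.8, 23.5, 24.1 and 24.1 FPKM across those of LRP1 KO. Dtx3l (ENSMUSG00000049502, 35926511 to 35939151, minus strand) was at 3.97, 4.02, 3.44 and 3.55 FPKM across WT libraries 1 to 4, against 4.70, 6.03, 6.39 and 7.38 FPKM across those of LRP1 KO. In both genes LRP1 KO library 1 was nearest to WT and still above it. The log2 differences were 0.71 (SE 0.10, limma adjusted p 0.00345) for Parp9 and 0.57 (SE 0.11, limma adjusted p 0.0160) for Dtx3l. The gene bodies share 682 bases, and 458 exonic bases, 9.40% of those of Parp9 and 8% of those of Dtx3l, belong to both. Whether strand was used in quantification is not given in the sources used here, so reads from the shared stretch could have counted for either.

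The ratio of Parp9 to Dtx3l was 3.46, 3.16, 3.95 and 3.63 in WT libraries 1 to 4 and 3.79, 3.90, 3.78 and 3.26 in LRP1 KO libraries 1 to 4. The groups overlapped, with means of 3.55 ± 0.331 and 3.68 ± 0.286 (SD, n = 4 each). The log2 difference of 0.13 did not pass an exact two-sided permutation test (p = 0.114, adjusted p = 0.114 over the 2 ratios).

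Parp14 (ENSMUSG00000034422, 35832874 to 35871544, minus strand), a mono-ADP-ribosyltransferase with macrodomains, lies on the same chromosome, 54966 bases from Dtx3l. It was at 3.12, 3.46, 3.18 and 3.34 FPKM across WT libraries 1 to 4, against 5.12, 5.32, 6.41 and 6.37 FPKM across those of LRP1 KO, again without overlap. The log2 difference was 0.67 (SE 0.08, limma adjusted p 0.00266), a ratio of means of 1.77. Parp12 (ENSMUSG00000038507, chromosome 6, 39086410 to 39118349), a zinc-finger mono-ADP-ribosyltransferase, was at 9.59, 8.70, 9.40 and 9.40 FPKM across WT libraries 1 to 4, against 11.9, 13.0, 15.2 and 14.5 FPKM across those of LRP1 KO. Its log2 difference was 0.51 (SE 0.08, limma adjusted p 0.00689), a ratio of means of 1.47. By exact permutation (two-sided), p was 0.0286 for each of the 9 called genes, which is the minimum for 4 libraries against 4.

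By level, which FPKM permits to be compared between genes, the order in WT was Ube2l6, Isg15, Parp9, Parp12, Trim25, Uba7, Usp18, Dtx3l, Parp14 and Herc6. The ranges of neighbours overlapped for Parp12 and Trim25, for Trim25 and Uba7, and for Dtx3l and Parp14. In LRP1 KO the order began with Isg15, Ube2l6, Usp18 and Parp9. Isg15 there stood above Ube2l6 in every library, the reverse of WT, and Usp18 had moved from the seventh place to the third, where its range of 19.7 to 32.1 FPKM overlapped that of Parp9 at 17.8 to 24.1 FPKM. The order of the others was the same in both groups.

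The LRP1 KO libraries differed among themselves in a like way across genes. Library 1 held the lowest LRP1 KO value in 8 of the 10 genes, all but Uba7 and Ube2l6, and library 3 the highest in 7. The median difference of the 10 genes from their WT means was 0.47, 0.60, 0.81 and 0.80 in LRP1 KO libraries 1 to 4, and 0.07, -0.05, -0.04 and -0.05 in WT libraries 1 to 4. LRP1 KO library 4, which lay between the groups across all genes, was thus at the level of library 3 in these genes. In WT, library 1 was the highest in 7 genes, Isg15, Usp18, Uba7, Ube2l6, Herc6, Parp9 and Parp12. The map of single libraries shows these differences gene by gene. These genes share 1 set of libraries, so the agreement between them is no replication.

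**Figure D3:**
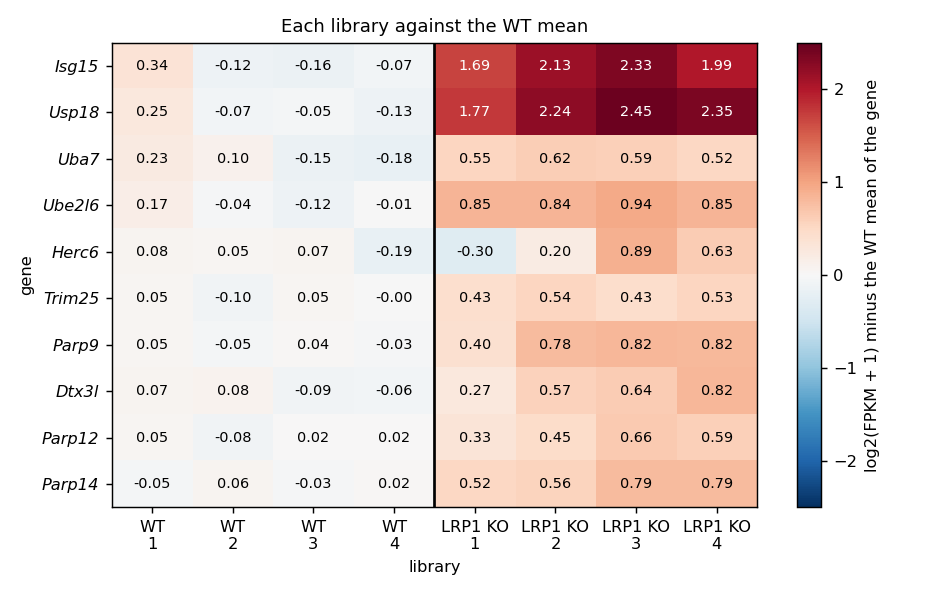
Difference of each library from the WT mean of the gene, in log2(FPKM + 1), for the 10 genes (rows) and 8 libraries (columns; WT left and LRP1 KO right of the line); red is higher and blue lower. All LRP1 KO cells are positive but that of Herc6 in library 1, at -0.30, and the Isg15 and Usp18 rows are the darkest.

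Cell type markers were set beside these values, since the libraries are bulk samples, in which fewer cells of a type and less RNA per cell cannot be told apart. The labelled cell type was present: all 13 endothelial markers were tested, with Pecam1 at 7.89 FPKM and Cdh5 at 9.59 FPKM on average in WT. Fibroblast markers were far more abundant, with Col1a1 at a WT mean of 499 FPKM. The summed macrophage markers (12 of 13 in the table, of which Lyz2 took the largest part with means of 39.4 FPKM for WT and 249.7 FPKM for LRP1 KO) ran from 37.9 to 76.8 FPKM in WT. The sums for LRP1 KO libraries 1 to 4 were 314, 472, 179 and 427 FPKM, so that all were above WT. Of the 8 macrophage markers tested, 7 were called higher, among them Mrc1, which passed the expression filter through the LRP1 KO libraries alone (0.170 to 0.657 FPKM in WT). Within LRP1 KO, library 3, with the highest values in 7 of the 10 genes, had the lowest macrophage sum. Clec4f was listed at 0 in every LRP1 KO library, while Cd163 was at a mean of 0.166 FPKM.

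With the mean level of the macrophage markers as a covariate, Isg15, Usp18 and Ube2l6 were still called, at differences of 2.44, 2.38 and 1.09 (limma adjusted p 0.0365, 0.0397 and 0.0370). The other 7 genes were not, with estimates from 0.38 for Trim25 to 0.73 for Parp14, and adjusted p-values from 0.0765 to 0.444. All 10 estimates were positive. In that fit 0.281% of all genes were called higher. The median SE went from 0.10 to 0.22 for the 10 genes and from 0.09 to 0.20 over all genes, and the covariate itself was separated between the groups.

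The summed endothelial markers were 169 to 184 FPKM across WT libraries, against 608, 388, 451 and 177 FPKM across those of LRP1 KO, in order. LRP1 KO library 4 was thus at the WT level in these markers, with a macrophage sum of 427 FPKM. In that library Isg15 was at 102 FPKM and Usp18 at 29.9 FPKM. LRP1 KO library 1, with the highest endothelial sum, had the lowest values of both among the LRP1 KO libraries. Fibroblast sums overlapped between WT (2316 to 3495 FPKM) and LRP1 KO (1936 to 3085 FPKM), and were carried by collagens and Dcn. All 7 fibroblast markers had negative differences, and 2 were called lower, Dpt by -2.01 (SE 0.51, limma adjusted p 0.0330) and Pdgfra by -0.96 (SE 0.25, limma adjusted p 0.0367). Dpt went from 35.2 ± 8.58 to 10.3 ± 9.18 FPKM (SD, n = 4 each) without overlap, and LRP1 KO library 4 was the nearest to WT in both. The mural markers, of pericytes and smooth muscle, summed to 627 to 793 FPKM in WT and to 975 to 1550 FPKM in LRP1 KO. These sums were mostly from Acta2 and Tagln, the 2 called higher of 6 tested. Of these 6, 5 had positive differences, while Pdgfrb was at -0.31 (limma adjusted p 0.221). Rgs5 was not tested, with means of 0.720 FPKM (WT) and 0.669 FPKM (LRP1 KO). The part of the endothelial, fibroblast and mural markers in the changes of the 10 genes was not tested. Markers of T, B and NK cells were near 0, with 6 of 8 listed at 0 in all libraries and none above 0.0786 FPKM, and those of plasmacytoid dendritic cells, a main source of type I interferon, did not exceed 0.243 FPKM, with Siglech listed at 0 throughout. General leukocyte markers summed to 187 to 227 FPKM (WT) and 179 to 207 FPKM (LRP1 KO), mostly from Arhgdib, while Laptm5, Cd53 and Cd52 were called higher, the last of which passed the filter through the LRP1 KO libraries alone (0.126 to 0.174 FPKM in WT). Markers of hepatocytes, cardiomyocytes and lung epithelium gave sums of at most 1.60, 154 and 3.62 FPKM. The cardiomyocyte sum was mostly from Tnnt2, while Myh6, Actc1 and Nppa did not exceed 1.51, 1.97 and 10.1 FPKM.

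**Figure D4:**
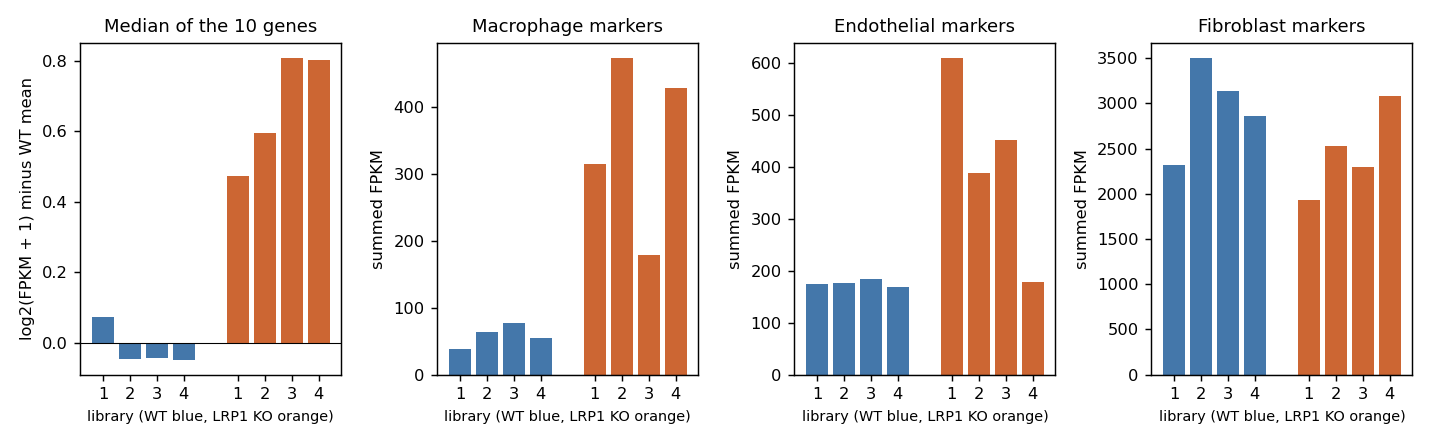
By library (WT 1 to 4 in blue, LRP1 KO 1 to 4 in orange), the median difference of the 10 genes from their WT means in log2(FPKM + 1), and the summed FPKM of macrophage, endothelial and fibroblast markers (bars from 0). LRP1 KO library 4 has an endothelial sum of 177 FPKM, as in WT, and a macrophage sum of 427 FPKM. LRP1 KO library 3 has the lowest macrophage sum of its group, 179 FPKM, which is above all WT sums. The median of the 10 genes is 0.81 in LRP1 KO library 3 and 0.80 in LRP1 KO library 4.

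Enzymes of the ubiquitin and related pathways were examined next. Usp2, a deubiquitinase that can also react with ISG15, fell by 0.66 (SE 0.09, limma adjusted p 0.00330), from 13.8 ± 0.699 to 8.37 ± 1.12 FPKM (SD, n = 4 each). The closest relatives of the cascade were not called: Uba1, the E1 of ubiquitin, at -0.02, Ube2l3, the nearest relative of Ube2l6, at 0.17, and Herc3 at -0.07. Arih1, a further ISG15 ligase, was at 0.48 (SE 0.18) and did not pass (limma adjusted p 0.0963). With the macrophage covariate the estimate of Usp2 was -0.94 (limma adjusted p 0.0558).

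Among the 13 other PARP family genes, 12 were tested, 2 were called higher and 0 lower, with a median of -0.02; with so few genes, this count is not read against the 6.27% of all tested genes called higher. These were Zc3hav1, which encodes the zinc-finger antiviral protein PARP13 and rose by 0.39 (SE 0.08, limma adjusted p 0.0193), and Parp10, a mono-ADP-ribosyltransferase, which rose by 0.39 (SE 0.11, limma adjusted p 0.0475). Both are known to respond to interferon. Parp1, the main enzyme of the DNA damage response, was at -0.19 (limma adjusted p 0.0948), and the tankyrases Tnks and Tnks2 were at 0.22 and -0.02 without passing. With Parp9, Parp12 and Parp14, the genes called in the family were 5 of the 15 tested. Parp9, Parp12 and Parp14 had been picked for the set with earlier results of these data known. The pooled count is therefore a description and not a rate for the family. The calls of the list of other PARP genes were not stable: both were lost without WT library 2, LRP1 KO library 2 or LRP1 KO library 3, and with the macrophage covariate, where Zc3hav1 and Parp10 were at 0.34 and 0.36 (limma adjusted p 0.308 and 0.410).

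Upstream of the 10 genes, the interferon receptor chains and kinases were not called. Irf7, which amplifies type I interferon production, was called higher, from 12.2 ± 1.81 to 40.6 ± 8.96 FPKM (SD, n = 4 each), by 1.63 (SE 0.16, limma adjusted p 0.000628). Ifnar1 and Ifnar2 were at -0.19 and -0.36 (limma adjusted p 0.127 and 0.0817), and Jak1 and Tyk2 at 0.08 and -0.03. With the macrophage covariate the estimate of Irf7 was 1.64 (limma adjusted p 0.0609). The interferon genes themselves were near 0: of 9 in the table, Ifnz, which did not exceed 0.454 FPKM, was the highest, and Ifnb1 and Ifng had means of 0 in WT and of 0.0258 and 0 FPKM in LRP1 KO.

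In the RIG-I arm, in which TRIM25 acts, the RNA sensors rose and the adaptor and kinases did not pass. Ddx58, which encodes RIG-I, rose by 0.61 (SE 0.08), Ifih1 (MDA5) by 0.84 (SE 0.10) and Dhx58 (LGP2) by 0.77 (SE 0.13), with limma adjusted p-values of 0.00271, 0.00210 and 0.00803. Mavs, Tbk1, Ikbke, Irf3 and Rnf135 were between -0.17 and 0.03. So 3 of 8 tested genes were called, all of them sensors. With so few genes, this count is not read against the 6.27% of all tested genes called higher. In the fit with the macrophage covariate 0.281% of all genes were called higher. There the estimates of the sensors were 0.87, 0.91 and 0.99 (limma adjusted p 0.0521, 0.0704 and 0.0826).

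The IFIT, OAS and MX antiviral effectors are likewise known as interferon targets. Of 11 tested, 7 were called higher and 0 lower, where 6.27% and 7.31% of all tested genes were. Among the 7, Oas3 (0.392 to 0.485 FPKM in WT) passed the expression filter through the LRP1 KO libraries alone and so had to be higher to be tested, and the count is given as a description. Oas1a, Oas1g, Ifit1, Oas2, Ifit3 and Oas3 rose by 2.03, 1.82, 1.70, 1.59, 1.35 and 1.08, so they lay between Ube2l6 and Usp18 in size, while Oas1c (0.28, limma adjusted p 0.0880) and Ifit2 (0.25, limma adjusted p 0.125) did not pass. With the macrophage covariate, 1 gene of this list was called, Oas1a at 2.05 (limma adjusted p 0.0399), where 0.281% of all genes were called higher, and the estimates of the other 6 ran from 0.56 to 1.93. The plot of changes by list sets these groups side by side.

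**Figure D5:**
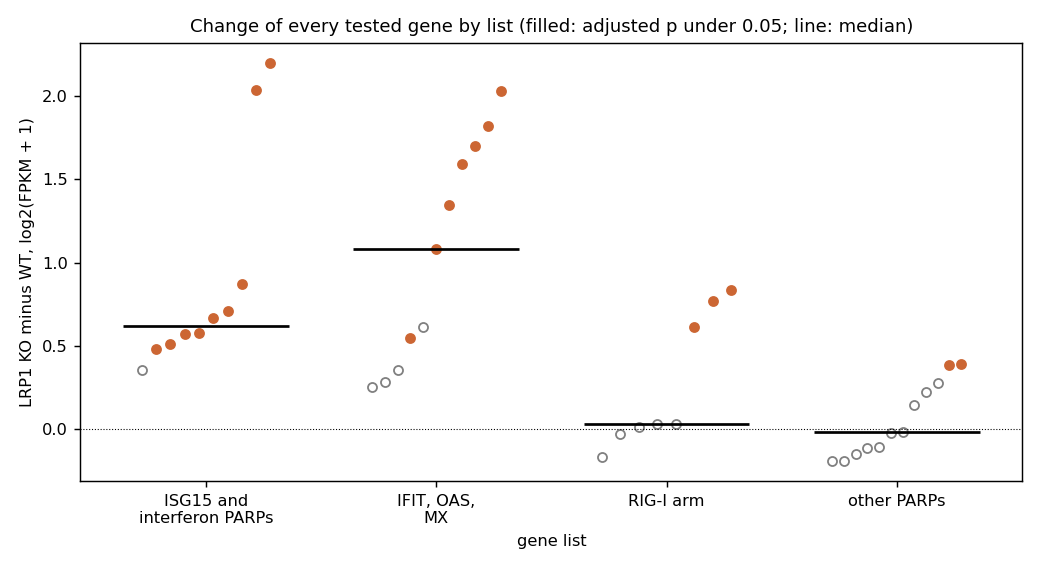
Difference LRP1 KO minus WT in log2(FPKM + 1) of every tested gene in 4 lists; filled points have a limma adjusted p under 0.05, open points do not, and the black line is the median of the list. The 10 genes and the tested antiviral effectors lie above 0 throughout, while the medians of the RIG-I arm and of the other PARP genes are 0.03 and -0.02.

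The genes outside the set whose profile was most like that of Isg15 were found by the mean absolute difference, over the 8 libraries, of log2(FPKM + 1) minus the WT mean of the gene. They were Oas1a, at a mean difference of 0.12, then Bglap2 (0.17), Ccdc109b (0.18), Apol9b (0.18) and Bglap (0.19). Bglap and Bglap2, the osteocalcin genes that the study followed, averaged 0.224 and 0.138 FPKM (WT) and 3.36 and 3.50 FPKM (LRP1 KO), far below Isg15 in level. Both passed the expression filter through the LRP1 KO libraries alone, and at such low values their likeness to Isg15 is set in part by the 1 added to each value. They are near-identical copies, so how reads were split between them is uncertain. The genes most like the median profile of the 10 were Gbp2 (0.05), Trim34a (0.06), Irgm2 (0.07), Ddx58 (0.08) and Tdrd7 (0.09), with log2 differences of 0.73, 0.59, 0.75, 0.61 and 0.64. Gbp2 and Irgm2 encode interferon-inducible GTPases.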

How the data were processed

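RNA sequencing libraries were made from total RNA with an Illumina TruSeq kit. The authors deposited 1 table of FPKM values for 22520 genes and 8 libraries. Its header gives no unit: FPKM was inferred, because the values are not whole and the submitters' processing notes name TopHat2 and Cufflinks with the mm10 build. The study's methods instead describe trimGalore, STAR, featureCounts and edgeR counts, which the table does not hold. The sorted values of at least 1 FPKM differed between libraries by a median of 0.576% and at most 3.39%, so the deposited values had been quantile normalized. Depth is lost in this step, so no counting error can be given, and a general rise or fall would be hidden.

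Genes with at least 1 FPKM in at least 4 libraries were kept (11389). log2(FPKM + 1) of the 8 libraries was modelled on group alone in limma 3.58.1 (trend, R 4.3.3), with Benjamini-Hochberg adjustment over all tested genes. The fit was tested on simulated data. Single genes and ratios were compared with exact two-sided permutation tests (scipy 1.17.1) over 70 arrangements. Positions come from GENCODE M21, promoter windows from RefSeq. Alternatives were another pseudocount, no filter, rescaled libraries, no trend, array weights, a macrophage covariate, a replicate block and leaving out each library. The 10 genes and all gene lists were chosen with earlier results of these data known. Named are the 10 genes, Lrp1, up to 6 called genes per list, the genes of most similar profile and defining markers. Uncalled genes named in a list were chosen after their values were seen. Some results of the lists are not reported here.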

Additional observations from a re-analysis of the deposited data

Results flagged for a closer look

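Of 24 groups of 4 values examined (the 10 genes and both ratios, in each group of libraries, on the log2 scale), 4 held a value whose gap to its neighbour took a share of the range above the 95% limit of Dixon's test for 4 values. Chance alone flags about 1 in 20 such groups. In LRP1 KO, Ube2l6 was highest in library 3, at 70.4 FPKM against 65.5 to 65.8 FPKM in the others, with a gap of 0.934 of the range. Parp9 was lowest in LRP1 KO library 1, at 17.8 FPKM against 23.5 to 24.1 FPKM, with a gap of 0.909. In WT, Herc6 was lowest in library 4, at 2.16 FPKM against 2.75 to 2.82 FPKM, with a gap of 0.894. The ratio of Isg15 to Usp18 was lowest in LRP1 KO library 4, at 3.42 against 4.02 to 4.20, with a gap of 0.849.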

How the results depend on the processing

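The count of 9 genes called higher among the 10 was the same under a pseudocount of 0.1, no filter on low values, rescaled libraries, no trend, array weights and the replicate block, and in all 8 fits that left out 1 library (9 to 9). With the macrophage covariate it was 3. Every estimate of the 10 genes was positive in all 15 alternatives, and 144 of their values in these alternatives kept their side of the threshold; the 6 that lost it were Uba7, Trim25, Parp9, Dtx3l, Parp12 and Parp14 with the macrophage covariate. Dtx3l came closest to the limit otherwise, with limma adjusted p-values from 0.00631 to 0.0499 when 1 library was left out, and 0.307 with the covariate. Over all tested genes, 1547 were called, against 78 with the macrophage covariate, 3003 with array weights, 1013 with the replicate block, and, in fits lacking 1 library, 512 (without WT library 2) to 3021 (without LRP1 KO library 4). Of these fits, those without WT library 3 or 4 gave 919 and 1008 genes, without WT library 1 850, and without LRP1 KO libraries 1, 2 and 3 566, 522 and 546. The causes were not tested. Of the counts of calls in 7 related lists, 43 moved by over 1.5 times and 62 did not; those of the RIG-I arm moved with the macrophage covariate alone. Same-numbered libraries deviated from their group means with correlations of 0.16, 0.14, 0.34 and -0.31, so the numbers do not pair the libraries. With the replicate block, the log2 ratio of Isg15 to Usp18 kept its difference of -0.16 (exact permutation p = 0.125, the smallest that 4 pairs allow). That ratio was -0.31 with a pseudocount of 0.1 (exact permutation p = 0.0286, adjusted p = 0.0571 over the 2 ratios) and -0.20 to -0.10 in fits lacking 1 library (-0.10 without LRP1 KO library 4), and that of Parp9 to Dtx3l was 0.06 with a pseudocount of 0.1 (exact permutation p = 0.514) and 0.09 to 0.18 in fits lacking 1 library. Without library depth, no limit of detection can be given for genes listed at or near 0.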

Other observations

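The enzymes that remove ADP-ribose and the other Deltex ligases, related to the PARP genes by function and to Dtx3l by family, were not part of the comparison above. Of 5 tested ADP-ribose hydrolases, Adprh rose by 0.23 (SE 0.06, limma adjusted p 0.0412), from 29.8 ± 1.93 to 35.2 ± 1.73 FPKM (SD, n = 4 each), and Macrod1, a mitochondrial macrodomain hydrolase, fell by 0.59 (SE 0.17, limma adjusted p 0.0484), from 10.8 ± 1.98 to 6.94 ± 1.80 FPKM with overlapping groups. Parg, which degrades poly-ADP-ribose chains, was at 0.21 and did not pass (limma adjusted p 0.165). Of 3 tested Deltex relatives, Dtx3 fell by 0.28 (SE 0.06, limma adjusted p 0.0234), from 41.9 ± 3.58 to 34.2 ± 0.666 FPKM, opposite in direction to Dtx3l, while Dtx2 and Dtx4 were at -0.21 and -0.58 without passing (limma adjusted p 0.103 and 0.0752). That Dtx3 and Dtx3l differ was not tested directly. Both hydrolase calls were lost in every fit that left out a library other than LRP1 KO library 4, without a filter on low values, without the trend and with the replicate block, and 1 of them after rescaling the libraries. That of Dtx3 was lost without LRP1 KO library 1, 2 or 3. With the macrophage covariate Adprh, Macrod1 and Dtx3 were at 0.16, -1.35 and -0.35 (limma adjusted p 0.522, 0.0565 and 0.191).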
